A study of Mus musculus with 28 samples.

Results

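The genes described here are the 112 rows that the deposited expression table assigns to the pathway term Lysosome, after the cathepsin genes (symbols starting with Cts), Cd68 and Slc11a1 were set aside. The term covers 128 of the 25301 genes in the table, and 16 of them were set aside. Of the 112 genes, 104 had 1 FPKM or more in 3 or more libraries and were tested. The 8 that did not were Ap3b2, Ap4s1, Atp6v0a4, Dnase2b, Entpd4, Entpd4b, Hyal3 and Lamp3. FPKM counts the sequenced fragments of a gene, corrected for transcript length and for the size of the library, and so gives relative amounts of RNA.

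The libraries were made from macrophages that had been sorted by flow cytometry out of pancreas tissue from C57BL/6J wild-type mice. The mice belonged to a recovery model of acute pancreatitis (AP) induced with caerulein, an agonist of the cholecystokinin receptor that injures acinar cells. There were 28 libraries in 6 groups. NC had 3 libraries, and the labels do not spell that name out. D0 had 5 libraries from day 0 of the model. D1 AP+PBS and D1 AP+Lac had 6 libraries each, from day 1 after AP with either PBS or lactate. D3 AP+PBS and D3 AP+Lac had 4 each from day 3. All groups share the genotype, strain and tissue, and age, doses and the gate of the sort are not stated in the sources used here. Nothing in the labels states that the libraries are from different animals, and the p-values therefore measure only the spread between libraries.

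A lysosome is an acidic compartment in which enzymes take apart what a cell has engulfed or wants to recycle. Its proton pump, the V-ATPase, keeps it acidic, and glycosidases, sulfatases, lipases and proteases each cut 1 class of bond. Most of these enzymes carry a mannose 6-phosphate tag, are recognised by receptors in the Golgi and leave it in coated vesicles. Macrophages depend on lysosomes to digest dead cells, which in the injured pancreas include acinar cells. Many lysosomal genes are controlled together by the transcription factors TFEB, TFE3 and MITF, which bind a short DNA element named the CLEAR motif.

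Macrophage identity and the content of other cells were checked before the genes were compared. All 12 macrophage markers were detected in each of the 28 libraries, and their summed FPKM ran from 2260 to 7200. Per group the sum was 5680 to 7200 in NC, 3660 to 5320 in D0, 3890 to 6480 in D1 AP+PBS, 2330 to 6270 in D1 AP+Lac, 2260 to 3460 in D3 AP+PBS and 2570 to 4730 in D3 AP+Lac. Transcripts of other pancreatic and immune cells were present as well. The 13 acinar markers summed to 5810 to 9360 in NC but only 352 to 666 in D0, and Prss1 was the only one listed at 0 in any library, in 2 of them. The 9 markers of B and plasma cells summed to 438 to 529 in NC, 20.9 to 77.9 in D0, 248 to 1350 in D1 AP+PBS and 635 to 1060 in D3 AP+PBS. The 13 T and NK cell markers summed to 165 to 278, 16.3 to 62.9, 162 to 500 and 617 to 857 in the same groups. In a bulk library, fewer macrophages and less RNA of a gene per macrophage cannot be told apart. The steps between low FPKM values gave the libraries 33273303 to 41060490 fragments each. The 3 libraries with the lowest median rank correlation to their own group, all below 0.96, were D1 AP+PBS 5 (0.944), D1 AP+Lac 5 (0.958) and D1 AP+Lac 6 (0.955).

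The promoters were searched for the core of the CLEAR motif. RefSeq promoters (assembly GRCm38.p6) were found for 88 of the 112 genes, and the 250 bases before each start site were searched on both strands. The 8 bases GTCACGTG, or their reverse complement CACGTGAC, were present for 15 of these 88 genes (17.0%). The same letters were present for 2.11% of the 27025 genes of the promoter table and for 3.91% of the 9615 expressed genes with an entry. The shorter palindrome CACGTG, which lies within the 8 bases, was present for 18 of the 88 (20.5%), and for 6.86% of all genes and 9.9% of the expressed ones. Only 78.6% of the 112 genes had an entry, so a comparison of these shares is void and they are given as a description. Among the lysosome genes that rose at day 0, whose test is given below, 6 of 32 with an entry (18.8%) held the 8 bases, and 2 of 15 (13.3%) of those that fell, both near the share of all members. Of those that fell from day 1 to day 3 it was 11 of 48 (22.9%). A match is not evidence that a factor binds there.

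The stretches below are shown as examples of a match in genes described later. In each, 1 match is in capitals and the strand of the gene is printed 5′ to 3′. Mcoln1 and Igf2r each hold 2 matches. The other match of Mcoln1 is in lower case, and that of Igf2r is not wholly within the printed stretch. They lie at chr12:102439096-102439183 (minus strand) for Lgmn, chrX:134601154-134601241 (minus) for Gla, chr17:12769707-12769755 (minus) for Igf2r, chr11:119355511-119355579 (minus) for Sgsh, chr9:114400988-114401075 (plus) for Glb1, chr8:13159093-13159160 (plus) for Lamp1 and chr8:3500434-3500518 (plus) for Mcoln1.
Lgmn: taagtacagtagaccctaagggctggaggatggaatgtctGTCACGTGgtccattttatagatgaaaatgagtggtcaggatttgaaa
Gla: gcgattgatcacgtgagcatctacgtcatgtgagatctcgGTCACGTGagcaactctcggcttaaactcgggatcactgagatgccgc
Igf2r: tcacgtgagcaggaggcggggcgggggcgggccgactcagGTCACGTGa
Sgsh: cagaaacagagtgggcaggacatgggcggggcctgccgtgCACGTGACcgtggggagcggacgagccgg
Glb1: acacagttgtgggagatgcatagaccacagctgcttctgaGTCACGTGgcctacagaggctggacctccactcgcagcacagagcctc
Lamp1: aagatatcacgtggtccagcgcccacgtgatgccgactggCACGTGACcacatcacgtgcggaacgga
Mcoln1: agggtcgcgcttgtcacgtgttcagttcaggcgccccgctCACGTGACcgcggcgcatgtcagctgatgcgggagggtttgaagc
The 10-base form, GTCACGTG followed by AC, was found for 1 of the 88 genes, Cln3, at chr7:126583310-126583399 (minus strand). Cln3 encodes a lysosomal membrane protein lost in a childhood storage disease and is shown for this match.
Cln3: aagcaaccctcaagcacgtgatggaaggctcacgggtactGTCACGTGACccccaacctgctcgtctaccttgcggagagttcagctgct

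Across the PBS groups the lysosome genes were high at day 0 and day 1 and lower at day 3. Their summed FPKM was 8121 ± 385 (SD, n = 3) in NC, 11317 ± 892 (n = 5) in D0, 10687 ± 1534 (n = 6) in D1 AP+PBS and 7330 ± 864 (n = 4) in D3 AP+PBS. This was 1.98%, 2.74%, 2.50% and 1.75% of the summed FPKM of all genes. Every D0 library, at 10756 or more, lay above every NC library, at 8493 or less, and every D3 AP+PBS library, at 8543 or less, lay below every D1 AP+PBS library, at 8769 or more. Prosaposin (Psap) and legumain (Lgmn) alone carried much of the sum. Without them it was 5412 ± 163 in NC, 6464 ± 376 in D0, 6542 ± 756 in D1 AP+PBS and 4645 ± 404 in D3 AP+PBS.

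**Figure D1:**
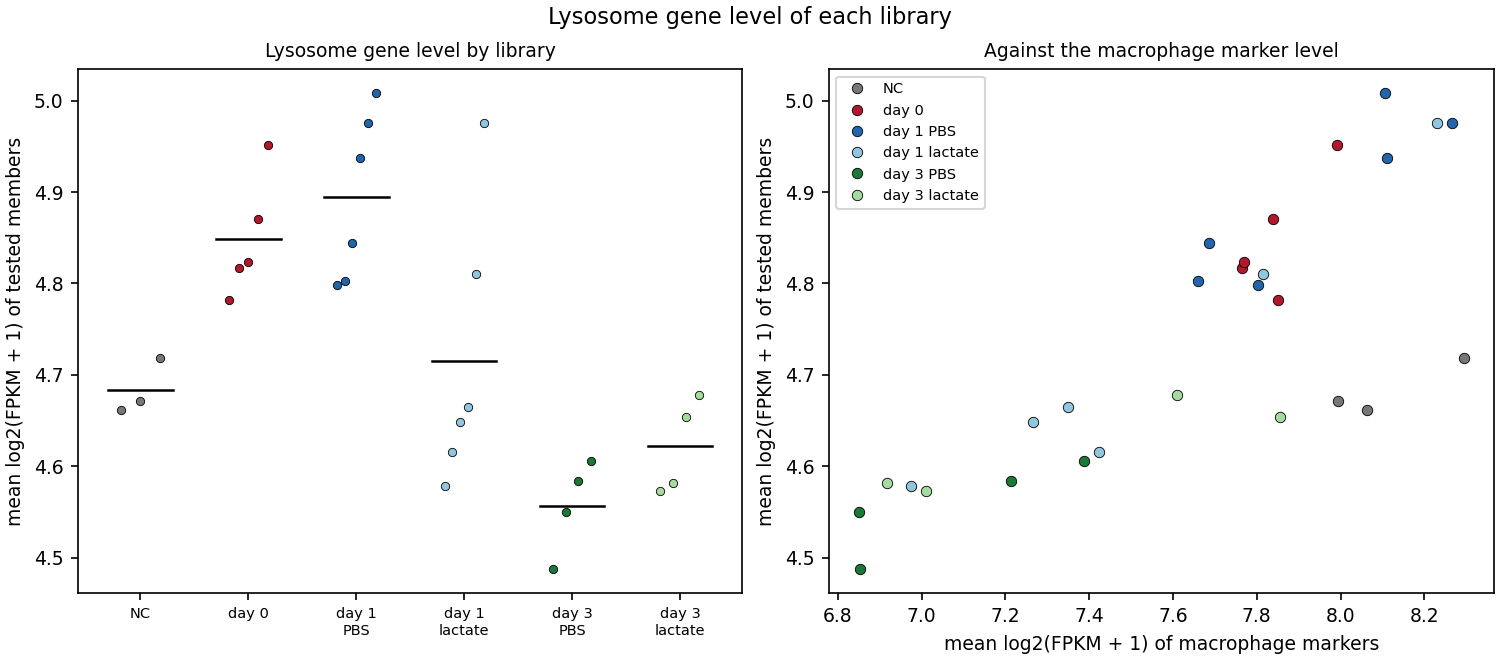
Left, mean log2(FPKM + 1) of the tested lysosome genes (members) in each library by group, with each line the group mean; right, the same level against the mean log2(FPKM + 1) of the macrophage markers, with each point 1 library. D0 and D1 AP+PBS libraries sit above D3 AP+PBS libraries, and D1 AP+Lac holds 4 low libraries and 2, numbers 5 and 6 at 4.81 and 4.98, within the range of the PBS libraries.

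Gene by gene, changes were tested with limma on log2(FPKM + 1) and called at a Benjamini-Hochberg adjusted p under 0.05 over the 11960 genes tested. From NC to D0, 40 of the 104 lysosome genes rose and 21 fell, while 19.7% of all genes rose and 41.4% fell. The median change was 0.13 for the lysosome genes and -0.22 for all genes. From D0 to D1 AP+PBS, 30 rose and 30 fell, against 43% and 19.8% of all genes, with medians of 0.00 and 0.19. From D1 to D3 AP+PBS, 8 rose and 60 fell, against 21.5% and 12.8% of all genes, with medians of -0.38 and 0.10. D3 AP+PBS against NC gave 9 higher and 19 lower, against 10.3% and 10.9% of all genes, with medians of -0.13 and 0.09. The groups did not overlap at all for part of the genes. From NC to D0 they were apart for 45 genes that were higher and 22 that were lower (21.7% and 46.6% of all genes), from D0 to D1 AP+PBS for 19 and 16 (31.7% and 12.5%), and from D1 to D3 AP+PBS for 3 and 44 (8.31% and 7.27%). Consecutive comparisons share a group, so they are set side by side without a test between them. In 16 of the 104 genes the calls were higher at day 0, lower at day 1 and lower again at day 3. This pattern was not counted over all genes.

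**Figure D2:**
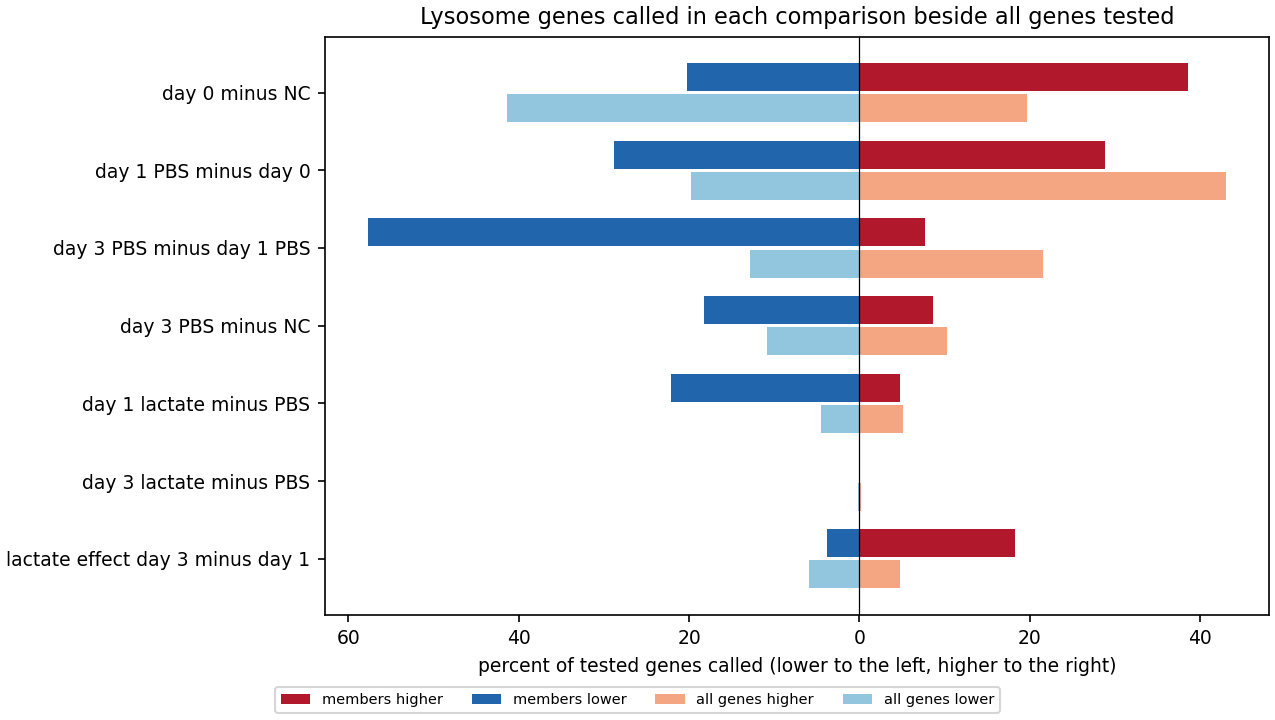
Share of the 104 tested lysosome genes (members, dark bars) and of all 11960 tested genes (pale bars) called higher, to the right, or lower, to the left, in each comparison, in percent. From D1 to D3 AP+PBS 57.7% of the lysosome genes fell against 12.8% of all genes.

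The scaling of the libraries bears on these splits. Median-ratio scaling moved the median of all genes from -0.22 to -0.04 for D0 against NC and from 0.19 to 0.02 for D1 AP+PBS against D0. Under it the calls were 51 higher and 13 lower for the first comparison and 18 higher and 41 lower for the second. For D3 AP+PBS against NC it gave 3 higher and 20 lower, and quantile normalization gave 7 and 25. The fall from D1 to D3 was 7 higher and 62 lower under median-ratio scaling and 8 and 61 under quantile normalization. Calls over all genes under these scalings are not given here, so the shifts are not read as particular to lysosome genes.

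Markers of other cells moved along with the day 0 and day 3 changes. From NC to D0, 12 of 13 acinar markers, 9 of 9 B and plasma cell markers, 11 of 13 T and NK cell markers and 10 of 10 dendritic cell markers fell, the last from a summed FPKM of 228 to 280 to one of 31.4 to 60.0. Of 10 tested neutrophil markers 6 rose and 1 fell, and the list summed to 101 to 229 FPKM in NC and 369 to 877 in D0. At day 1, 7 of these 10 fell and 0 rose, with sums of 68.9 to 226 in D1 AP+PBS. The 12 macrophage markers split at these steps, with 1 higher (Fcgr1) and 5 lower from NC to D0, and 5 higher and 2 lower at day 1. From D1 to D3 AP+PBS, 9 of 12 macrophage markers fell and 11 of 13 T and NK cell markers rose. The mean macrophage marker level on the log2(FPKM + 1) scale was 7.94 ± 0.25 in D1 AP+PBS (n = 6) and 7.08 ± 0.27 in D3 AP+PBS (n = 4). With the macrophage marker level of each library as a covariate, an alternative added after the data were seen, 14 of the 104 lysosome genes were called from D1 to D3 in place of 68, with 13 of them lower. With a covariate for lymphocyte markers 40 were called, 35 of them lower. For D0 against NC, 26 were called with an acinar covariate (16 higher, 10 lower) and 49 with a lymphocyte covariate (19 higher, 30 lower). Calls over all genes under these covariates are not given here, and the part that cell content had in these changes was not tested further.

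Among proteases, phosphatases and nucleases, the asparaginyl protease legumain changed most. Lgmn, which matures cathepsins, had FPKM of 344, 346 and 403 in the NC libraries. In the 5 D0 libraries it had 2087, 1707, 1334, 1592 and 1474. In D1 AP+PBS it ranged from 770 to 1318 with a median of 990, and in D3 AP+PBS it had 289, 248, 237 and 340. Every D0 library was above every D1 library, and every D1 library was above every NC and D3 library. The change was 2.15 ± 0.25 (log2, SE; adjusted p = 8.5e-08) at day 0, -0.72 ± 0.21 (adjusted p = 0.0042) at day 1 and -1.83 ± 0.22 (adjusted p = 6.7e-06) at day 3, the largest fall of any lysosome gene in that step. With the lymphocyte covariate the day 1 value turned to 0.51.

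Other enzymes of this class followed other courses. Tpp1, a tripeptidyl peptidase, did not pass the test at the first steps (-0.02 and 0.09) and had 84.6 FPKM at most and 48.8 at least in D1 AP+PBS, with a median of 62.7. In D3 AP+PBS it had 36.7, 30.8, 32.5 and 35.7, all below every D1 and NC library, a fall of 0.90 ± 0.14 (adjusted p = 0.0001). Acp5, the tartrate-resistant acid phosphatase, was the member with the highest rise of D3 AP+PBS over NC. Its FPKM were 22.8, 19.5 and 17.1 in NC and 43.6, 35.5, 39.5 and 49.2 at day 3, a difference of 1.05 ± 0.31 (adjusted p = 0.019) without overlap. That call was lost when NC 2 or NC 3 was left out. Napsa, an aspartic protease, fell by 0.58 ± 0.14 (adjusted p = 0.00098) at day 1 and rose by 0.68 ± 0.15 (adjusted p = 0.0015) at day 3, from 87.8 ± 23.3 to 138 ± 10.6 FPKM.

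**Figure D3:**
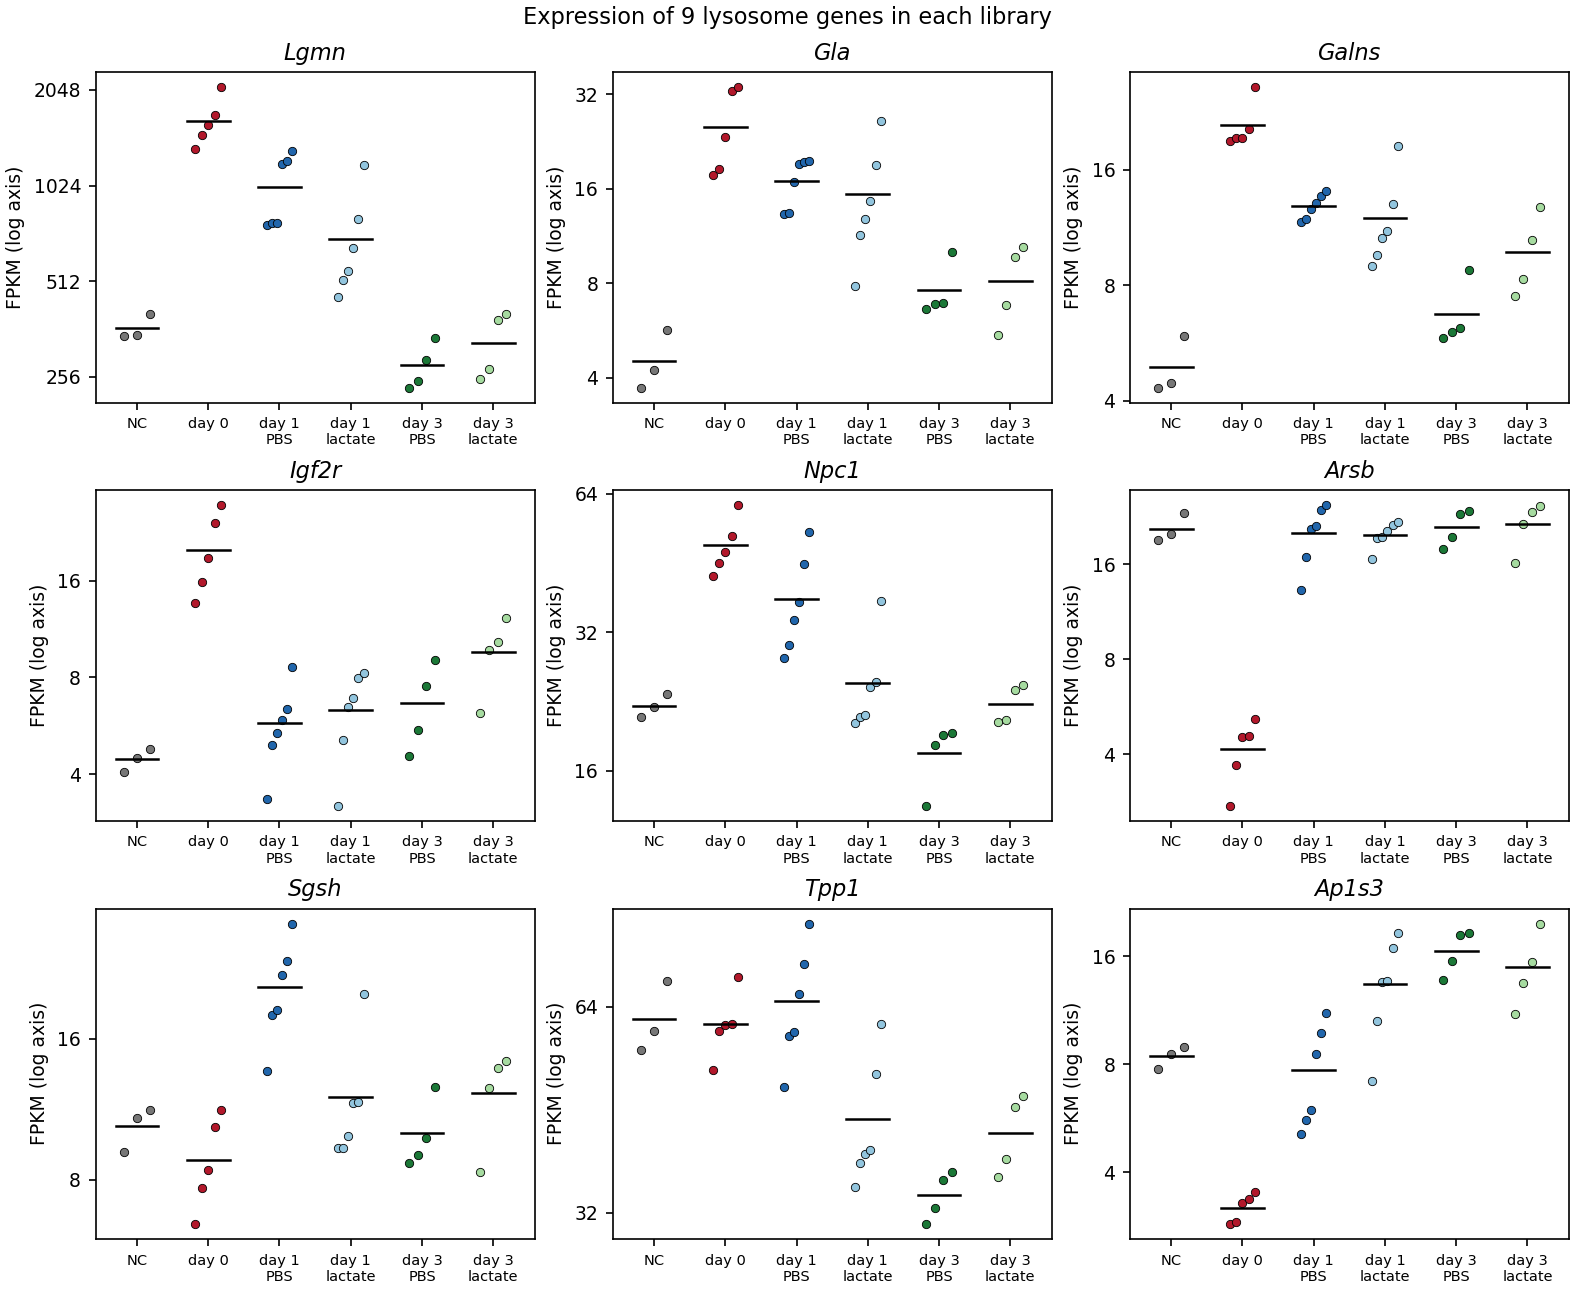
FPKM (log2-spaced axis) of 9 lysosome genes in each library, by group, with each point 1 library and each line the group mean. Lgmn, Gla, Galns, Igf2r and Npc1 have their highest mean in D0, Arsb is lowest in D0, Sgsh is highest in D1 AP+PBS, Tpp1 is lowest in D3 AP+PBS, and Ap1s3 is highest in D3 AP+PBS.

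The glycosidases, which cleave sugars from glycoproteins, glycolipids and glycosaminoglycans, moved apart at day 0 and together at day 3. Of 19 tested, 6 rose and 4 fell at day 0, 7 rose and 4 fell at day 1, and 16 fell and 0 rose at day 3. These were 31.6% and 21.1%, 36.8% and 21.1%, and 84.2% lower with 0% higher. Of all genes 19.7% rose and 41.4% fell, then 43% and 19.8%, then 21.5% and 12.8%. The median changes of the glycosidases were -0.01, 0.13 and -0.64. Against NC, 9 of the 19 (47.4%) were lower in D3 AP+PBS and 0 higher, where 10.9% of all genes were lower and 10.3% higher.

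Gla, the alpha-galactosidase that is deficient in Fabry disease, was the gene with the highest rise at day 0. It had 3.72, 5.66 and 4.23 FPKM in NC and 32.9, 23.4, 33.7, 17.6 and 18.5 in D0. In D1 AP+PBS it ranged from 13.3 to 19.6 with a median of 18, and in D3 AP+PBS it had 6.91, 6.62, 6.86 and 10.0. All D0 and D1 AP+PBS libraries were above all NC and D3 AP+PBS libraries. The change was 2.21 ± 0.27 (adjusted p = 2.4e-07) at day 0 and -1.06 ± 0.24 (adjusted p = 0.0021) at day 3, and that at day 1 (-0.51 ± 0.23, adjusted p = 0.051) missed the threshold.

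The beta-galactosidase Glb1 and the galactosylceramidase Galc rose at day 1 and fell at day 3. Glb1 had 20.0, 17.0, 19.7, 14.1 and 15.8 FPKM in D0, 23.1 to 43.6 in D1 AP+PBS (median 35.5) and 14.7, 15.6, 16.2 and 16.9 at day 3. The D1 libraries were above all of both other groups. Its changes were 0.94 ± 0.16 (adjusted p = 2.6e-05) and -1.05 ± 0.17 (adjusted p = 0.00015), and those of Galc were 0.66 ± 0.16 (adjusted p = 0.0014) and -1.21 ± 0.18 (adjusted p = 4.3e-05). Hexa, the alpha subunit of beta-hexosaminidase, had 427 ± 104 FPKM in D1 AP+PBS and 197 ± 47.8 in D3 AP+PBS, a fall of 1.11 ± 0.22 (adjusted p = 0.00075). Gusb, a beta-glucuronidase, rose by 0.66 ± 0.15 (adjusted p = 0.00058) at day 0 and fell by 0.94 ± 0.13 (adjusted p = 3.4e-05) at day 3. The day 0 call of Gusb was lost with the acinar and with the lymphocyte covariate.

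The sulfatases remove sulfate groups, mainly from glycosaminoglycans. Of 7, 2 rose and 3 fell at day 0, 3 rose and 1 fell at day 1, and 5 fell and 0 rose at day 3. The shares at the first steps (28.6% and 42.9%, then 42.9% and 14.3%) were near those of all genes (19.7% and 41.4%, then 43% and 19.8%), and at day 3 71.4% fell against 12.8%. Galns and Arsb, which both cut sulfates from N-acetylgalactosamine, at different positions, went in opposite directions at day 0. Galns had 4.32, 5.88 and 4.45 FPKM in NC and 26.2, 19.3, 19.4, 19.0 and 20.4 in D0. In D1 AP+PBS it ranged from 11.7 to 14.1 (median 12.9), and in D3 AP+PBS it had 5.84, 6.20, 8.77 and 6.03. The groups did not overlap at any of the 3 steps, with changes of 1.89 ± 0.18 (adjusted p = 2.2e-09), -0.65 ± 0.15 (adjusted p = 0.00046) and -0.86 ± 0.15 (adjusted p = 0.00033).

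Arsb had 19.9, 19.1 and 23.2 FPKM in NC and 4.53, 3.71, 5.16, 2.75 and 4.57 in D0. It had 13.2 to 24.5 in D1 AP+PBS (median 20.9) and 23.6, 19.5, 23.0 and 17.9 at day 3. D0 stood alone below the other groups, and the changes of -2.10 ± 0.17 (adjusted p = 2e-10) and 2.03 ± 0.14 (adjusted p = 2.1e-11) were the deepest fall and the steepest rise among the lysosome genes at these steps. Day 3 against NC differed by 0.01 ± 0.18 (adjusted p = 0.97). Sgsh, a sulfamidase of heparan sulfate, was highest at day 1. Its FPKM were 11.3, 10.4, 6.43, 7.70 and 8.38 in D0, 13.7 to 28.2 in D1 AP+PBS (median 20.2), and 9.84, 9.03, 12.6 and 8.69 in D3 AP+PBS. No D1 library overlapped D0 or D3, and it rose by 1.13 ± 0.18 (adjusted p = 1.2e-05) and then fell by 0.95 ± 0.19 (adjusted p = 0.001).

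Lipid hydrolases and their activators break down or present membrane and stored lipids. Of 8, 2 rose and 1 fell at day 0, 1 rose at day 1, and 3 fell at day 3. The shares that rose and fell were 25% and 12.5%, 12.5% and 0%, and 0% and 37.5%. Of all genes it was 19.7% and 41.4%, 43% and 19.8%, and 21.5% and 12.8%. Psap, the precursor of the saposins that present lipids to the enzymes, was by mean FPKM the most abundant lysosome gene. It had 2137, 2727 and 2171 FPKM in NC and 3690, 3030, 3048, 3082 and 3217 in D0, without overlap. The rise was 0.46 ± 0.17 (adjusted p = 0.021), and the call was lost without NC 1 or NC 3. Its later changes, -0.05 and -0.38, did not pass the test. The lysosomal acid lipase Lipa had 91.2 ± 14.0, 94.1 ± 11.4, 93.2 ± 16.3 and 70.2 ± 4.60 FPKM in NC, D0, D1 AP+PBS and D3 AP+PBS and passed the test at no step. Pla2g15, a lysosomal phospholipase, fell from 63.6 ± 12.8 to 27.8 ± 4.68 FPKM at day 3 (-1.16 ± 0.20, adjusted p = 0.0002). Ppt1, a thioesterase that takes fatty acids off proteins, rose at day 0 by 0.37 ± 0.12 (adjusted p = 0.011), and was also higher in D3 AP+PBS than in NC (0.41 ± 0.13, adjusted p = 0.023), a call lost without NC 1, NC 2, D3 AP+PBS 1 or D3 AP+PBS 4.

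Of 21 membrane proteins and transporters, 6 rose and 6 fell at day 0, 7 rose and 3 fell at day 1, and 2 rose and 13 fell at day 3. These were 28.6% and 28.6%, 33.3% and 14.3%, and 9.52% and 61.9%. Of all genes it was 19.7% and 41.4%, 43% and 19.8%, and 21.5% and 12.8%. Npc1 and Npc2 hand cholesterol out of the lysosome, and both rose at day 0. Npc1 had 21.0, 22 and 23.4 FPKM in NC and 60.4, 52.0, 47.9, 42.4 and 45.2 in D0. It had 28.1 to 52.8 in D1 AP+PBS (median 35.6) and 18.2, 13.4, 19.3 and 19.1 at day 3. D0 lay above NC and D1 above D3 without overlap. Npc1 rose by 1.12 ± 0.18 (adjusted p = 1.3e-05) and fell by 0.40 ± 0.15 (adjusted p = 0.023) and then 1.05 ± 0.16 (adjusted p = 7e-05), and the middle call was lost without D0 1, D1 AP+PBS 3 or D1 AP+PBS 5. Npc2 rose by 0.91 ± 0.24 (adjusted p = 0.0021), from 201 ± 17.7 to 381 ± 55.7, and its later changes of -0.27 and -0.35 did not pass.

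The structural glycoproteins of the lysosomal membrane changed less at day 0. Lamp1 had 501 ± 16.3 FPKM in NC, 655 ± 44.0 in D0, 732 ± 153 in D1 AP+PBS and 387 ± 72.8 in D3 AP+PBS. Only its fall at day 3 passed the test (-0.91 ± 0.18, adjusted p = 0.00076), as did those of Lamp2 (-0.63 ± 0.22, adjusted p = 0.029) and the tetraspanin Cd63 (-0.76 ± 0.29, adjusted p = 0.042). The calls of Lamp2 and Cd63 were lost when any of 4 and any of 6 libraries was left out, respectively. The day 0 result of Lamp1 and Lamp2 depended on the processing. Both were called higher under median-ratio scaling, with the compared groups alone, with the macrophage covariate and without the 3 least similar libraries. Their values there were 0.38 to 0.61 and 0.49 to 0.73. With the lymphocyte covariate they were -0.65 and -0.71. Litaf, which sorts proteins into late endosomes, rose at day 0 by 1.22 ± 0.20 (adjusted p = 1.6e-05) and fell at day 3 by 1.11 ± 0.18 (adjusted p = 0.00012). Abca2, a lipid transporter, fell at day 0 by 1.17 ± 0.23 (adjusted p = 0.00013) and rose at day 1 by 0.94 ± 0.19 (adjusted p = 0.00018). The sialic acid exporter Slc17a5 rose at day 1 by 0.40 ± 0.13 (adjusted p = 0.013) and fell at day 3 by 0.98 ± 0.14 (adjusted p = 4.5e-05). The calcium channel Mcoln1 rose by 0.32 ± 0.11 (adjusted p = 0.012) and fell by 0.33 ± 0.12 (adjusted p = 0.029) at those steps, the fall lost without D1 AP+PBS 1, D1 AP+PBS 4, D3 AP+PBS 2 or D3 AP+PBS 4. The acetyltransferase Hgsnat was lower than NC at day 0 (-0.78 ± 0.15, adjusted p = 8.8e-05) and at day 3 (-1.04 ± 0.15, adjusted p = 3.1e-05), with 28.7 ± 2.38 FPKM in NC and 13.5 ± 1.35 in D3 AP+PBS. Laptm4b, a membrane protein of late endosomes, went the other way, falling at day 0 by 0.94 ± 0.28 (adjusted p = 0.006) and rising by 0.74 ± 0.23 (adjusted p = 0.0083) and 0.77 ± 0.25 (adjusted p = 0.019), the last lost without D3 AP+PBS 1.

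The V-ATPase pumps protons into the lysosome. Of 9 of its genes, 7 rose and 1 fell at day 0, 1 rose and 6 fell at day 1, and 1 rose and 7 fell at day 3. These were 77.8% and 11.1%, 11.1% and 66.7%, and 11.1% and 77.8%. Of all genes it was 19.7% and 41.4%, 43% and 19.8%, and 21.5% and 12.8%. The median changes of the 9 genes were 0.57, -0.37 and -0.51. Atp6v1h, a regulatory subunit, had 11.2, 14.7 and 12.3 FPKM in NC and 24.8, 22.5, 26.3, 23.2 and 22.5 in D0. It fell back to 12.3 to 17.0 in D1 AP+PBS (median 13.8), all below D0. The changes were 0.86 ± 0.10 (adjusted p = 9.2e-08) and -0.69 ± 0.08 (adjusted p = 1.8e-07). Tcirg1, the a3 subunit, rose from 65.5 ± 4.41 to 98.3 ± 11.1 (0.57 ± 0.16, adjusted p = 0.0038) and fell at day 3 by 0.50 ± 0.14 (adjusted p = 0.0095).

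The alternative subunits did not move together. Atp6v0d2, a d subunit typical of osteoclasts and some macrophages, was the pump gene that fell at day 0. It had 2.73, 2.54 and 4.27 FPKM in NC and 1.38, 1.41, 0.976, 0.882 and 1.22 in D0. In D1 AP+PBS it had 3.25 to 7.06 (median 4.8), above every D0 and D3 library, and in D3 AP+PBS it had 1.79, 1.70, 1.19 and 1.82. The changes were -0.93 ± 0.24 (adjusted p = 0.0019), 1.45 ± 0.20 (adjusted p = 1.2e-06) and -1.18 ± 0.21 (adjusted p = 0.00032). Of the a subunits, Atp6v0a1 fell at day 3 by 0.80 ± 0.12 (adjusted p = 8.7e-05) while Atp6v0a2 rose by 0.46 ± 0.12 (adjusted p = 0.0041). Dmxl2, part of the rabconnectin complex that acts on the pump, had 1.66 ± 0.29 FPKM in NC and 5.4 ± 1.27 in D0 (1.25 ± 0.15, adjusted p = 1.2e-07) and was back at 1.82 ± 0.40 in D1 AP+PBS.

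**Figure D4:**
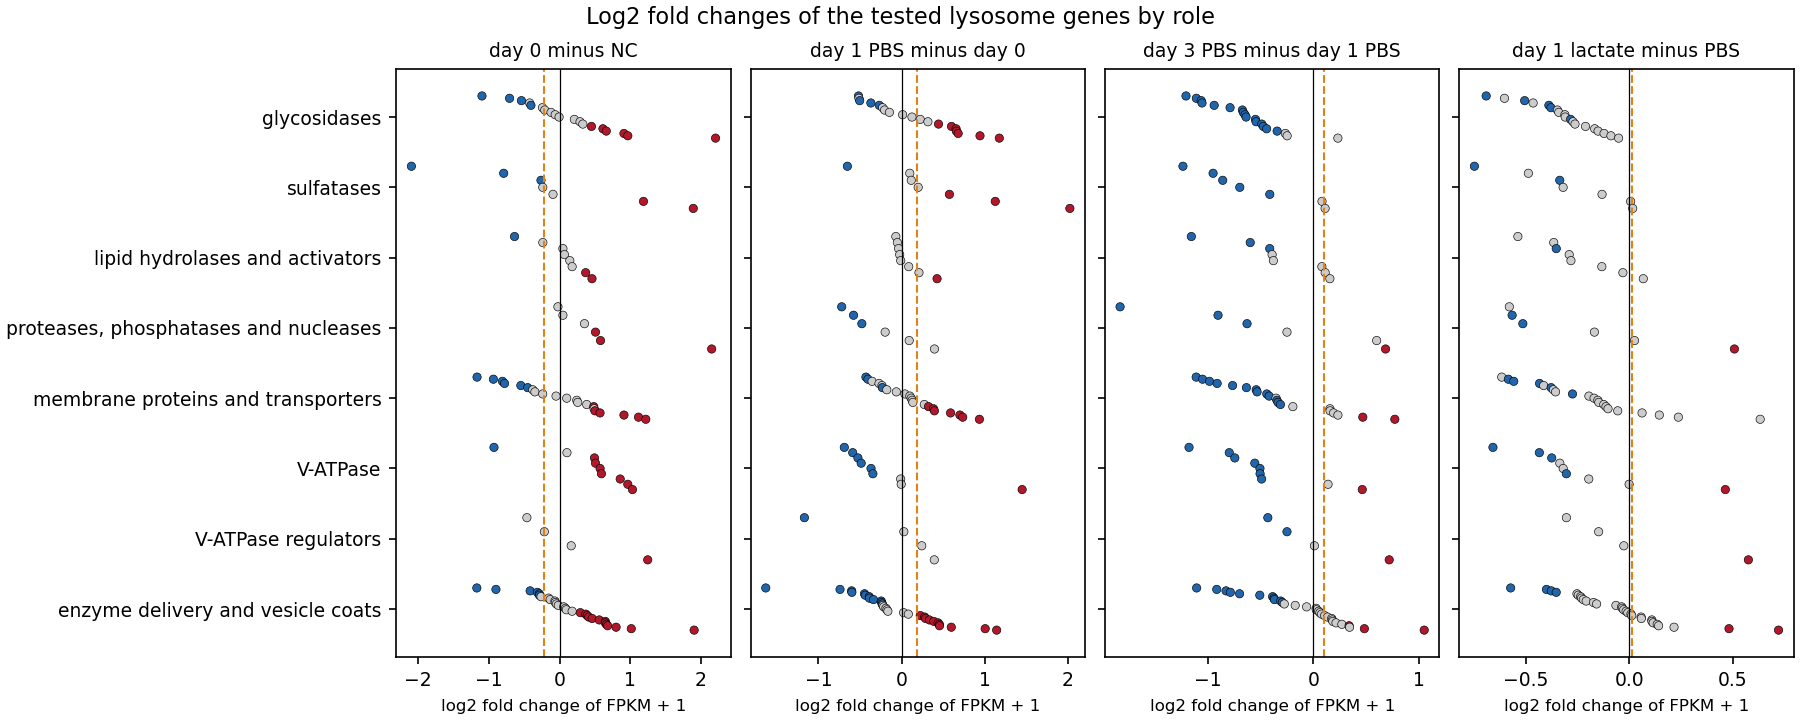
Log2 fold changes of the 104 tested genes by role in 4 comparisons, with each point 1 gene, red called higher, blue called lower, grey not called, and the dashed line the median of all genes tested. Most V-ATPase genes lie to the right at day 0, and 16 of 19 glycosidases are blue in D3 against D1 AP+PBS.

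Enzymes reach the lysosome through receptors and through clathrin and adaptor (AP) coats. Of 30 genes for enzyme delivery and vesicle coats, 13 rose and 6 fell at day 0, 11 rose and 12 fell at day 1, and 3 rose and 11 fell at day 3, with a median of 0.03 at the last step. The shares were 43.3% and 20%, 36.7% and 40%, and 10% and 36.7%. Of all genes it was 19.7% and 41.4%, 43% and 19.8%, and 21.5% and 12.8%. Igf2r, the large mannose 6-phosphate receptor that also takes up IGF2, was high in D0 alone. It had 4.49, 4.79 and 4.07 FPKM in NC, 27.4, 24.2, 13.6, 18.8 and 15.9 in D0, 3.34 to 8.65 in D1 AP+PBS (median 5.62) and 7.54, 5.49, 9.06 and 4.56 in D3 AP+PBS. Every D0 library was above every library of those groups. It rose by 1.91 ± 0.26 (adjusted p = 1.3e-06) and fell by 1.63 ± 0.22 (adjusted p = 8.1e-07). The small receptor M6pr had far narrower changes, from 120 ± 6.86 in NC to 136 ± 6.88 in D0 (0.18 ± 0.10, adjusted p = 0.13) and a fall of 0.23 ± 0.08 (adjusted p = 0.019) at day 1, a call lost without D0 1 or D1 AP+PBS 2. Gnptab, the enzyme that makes the tag these receptors read, rose at day 0 (0.56 ± 0.19, adjusted p = 0.011), fell at day 1 (-0.45 ± 0.15, adjusted p = 0.014) and rose at day 3 (0.48 ± 0.16, adjusted p = 0.025), the last lost without any of 5 libraries.

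Coat subunits of the same complex went separate ways. Ap1s3, a small subunit of the AP-1 adaptor, had 8.55, 8.92 and 7.79 FPKM in NC and 3.52, 3.28, 2.87, 2.92 and 3.36 in D0. It had 5.12 to 11.1 in D1 AP+PBS (median 7.27) and 18.3, 18.5, 15.6 and 13.7 in D3 AP+PBS. The groups were separate at each step, with D3 the highest, and the changes were -1.17 ± 0.23 (adjusted p = 0.00012), 1.01 ± 0.19 (adjusted p = 7.6e-05) and 1.05 ± 0.20 (adjusted p = 0.0006). Ap1b1, the large beta subunit of the same adaptor, fell at day 3 from 74.5 ± 15.4 to 33.7 ± 4.44 FPKM (-1.10 ± 0.16, adjusted p = 3.3e-05). Clathrin light chain Clta rose at day 0 (0.66 ± 0.13, adjusted p = 0.00014), and both Clta (-0.83 ± 0.12, adjusted p = 3.3e-05) and the heavy chain Cltc (-0.79 ± 0.14, adjusted p = 0.00028) fell at day 3. Ap4m1, of the AP-4 adaptor, fell at day 0 by 0.90 ± 0.13 (adjusted p = 1.6e-06) and rose at day 1 by 1.14 ± 0.10 (adjusted p = 2.1e-09), and Ap3m1 of AP-3 did the reverse, with 0.46 ± 0.08 (adjusted p = 1.6e-05) and -0.74 ± 0.06 (adjusted p = 7.6e-10).

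Several genes were not back at the NC level in D3 AP+PBS. The lowest against NC were Cltc (-1.05 ± 0.16, adjusted p = 5.6e-05), Hgsnat, Ap1b1 (-1.03 ± 0.18, adjusted p = 0.00027), Hyal2 (-0.96 ± 0.16, adjusted p = 8.3e-05), Atp6v0a1 (-0.87 ± 0.15, adjusted p = 0.00014) and Hexa (-0.85 ± 0.26, adjusted p = 0.022), the last lost without NC 1, NC 3 or D3 AP+PBS 3. Hyal2, a hyaluronidase, had 7.42, 6.44 and 8.54 FPKM in NC and 2.62, 3.68, 3.89 and 3.23 in D3 AP+PBS, with no overlap. Groups did not overlap for 36 lower and 12 higher lysosome genes in this comparison, against 14.7% and 22% of all genes tested. The call count of 28 rested on few NC libraries: it was 17 without NC 1 and 10 without NC 3. Over the same comparison 9 of 12 macrophage markers were lower, and with their level as a covariate 16 lysosome genes were called, 12 higher and 4 lower. Hexa, Gusb, Lamp1 and Lgmn changed sign there. Calls over all genes with an NC library left out or with this covariate are not given here. These shifts are therefore not read as particular to lysosome genes.

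Lactate against PBS at day 1 gave 5 lysosome genes higher and 23 lower, where 9.72% of all genes were called, 5.16% higher and 4.56% lower. The median change was -0.20 for the lysosome genes and 0.02 for all genes, and 81 of the 104 had a negative value. All 19 glycosidases had a negative value, and 5 of them were called lower, as were 2 of 7 sulfatases, 1 of 8 lipid enzymes, 2 of 6 proteases, phosphatases and nucleases, 5 of 21 membrane proteins, 4 of 9 V-ATPase genes and 4 of 30 delivery genes. The comparison has a large spread within D1 AP+Lac. Only 1 lysosome gene, Atp6v0a2, had groups that did not overlap (0.134% of all genes tested did so in that direction and 0.276% in the other).

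The calls at day 1 depended on which libraries set the spread. The model takes the spread from all 28 libraries. When it was taken from the 12 compared libraries alone, limma called 0 lysosome genes and 0 of all 11960. At an unadjusted p under 0.05, 7 of the 104 lysosome genes were higher and 34 lower there, where 19.1% of all genes passed. The number called was 3 without D1 AP+PBS 1, 5 without D1 AP+PBS 4, 15 without D1 AP+Lac 1, 16 without D1 AP+PBS 6, D1 AP+Lac 3 or D1 AP+Lac 4, and 51 without D1 AP+Lac 6. Without the 3 libraries least like their groups, an alternative added after the data were seen, 10 were higher and 51 lower. Calls over all genes with these libraries left out are not given here.

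At day 1, libraries 5 and 6 of both arms stood apart from libraries 1 to 4, although the labels name no batch. Their mean log2(FPKM + 1) of fibroblast and stellate cell markers was 1.53 to 1.66 with PBS and 1.58 to 1.75 with lactate, against 2.99 to 3.76 and 2.82 to 4.13 in libraries 1 to 4. The acinar marker level was 4.45 to 4.72 and 4.99 to 5.17, against 6.31 to 6.63 and 5.31 to 6.47. They also had fewer genes above 0, at 17769 to 18165 against 18852 to 19407. The mean log2(FPKM + 1) of the lysosome genes in libraries 5 and 6 was 4.84 and 4.98 with PBS and 4.81 and 4.98 with lactate, whereas in libraries 1 to 4 it was 4.8 to 5.01 with PBS and 4.58 to 4.66 with lactate, without overlap. With libraries 1 to 4 as the only day 1 libraries, an alternative added after the data were seen, 9 lysosome genes were higher and 48 lower. Calls over all genes in that setting are not given here, so these counts are not read as particular to lysosome genes. With libraries 5 and 6 alone, 2 against 2, limma called 0 lysosome genes and 0 of all genes. At an unadjusted p under 0.05, 1 lysosome gene was higher and 1 lower of 104, where 3.29% of all genes passed. Sgsh was at -1.04 (adjusted p = 0.00017) in the first and -0.17 in the second, Galc at -0.95 (adjusted p = 0.00014) and -0.18, Tpp1 at -0.83 (adjusted p = 5.7e-05) and -0.04, and Atp6v0a2 at 0.47 (adjusted p = 0.0073) and 0.45. Whether the effect differed between these sets of libraries was not tested.

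The lactate libraries 1 to 4 also had lower macrophage marker levels, 6.97 to 7.42 against 7.82 and 8.23 in lactate libraries 5 and 6 and 7.66 to 8.27 in the PBS libraries. Between the groups, 4 of 12 macrophage markers were lower with lactate, Adgre1 (F4/80) among them at -0.70 ± 0.20 (adjusted p = 0.029), and 4 of 13 T and NK cell markers and 5 of 10 dendritic cell markers were higher. With the macrophage marker level as a covariate, limma called 0 lysosome genes and 1 of all genes. At an unadjusted p under 0.05, 9 of the 104 lysosome genes were higher and 23 lower, where 20.8% of all genes passed. The part of macrophage content in the day 1 differences was not tested further.

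Sgsh, the sulfamidase, was the gene with the lowest value. In D1 AP+PBS it ranged from 13.7 to 28.2 FPKM with a median of 20.2, and in D1 AP+Lac from 9.33 to 20.0 with a median of 10.8. Lactate libraries 1 to 5 were below every PBS library, and library 6 lay within them. The change was -0.75 ± 0.17 (adjusted p = 0.013), lost without D1 AP+PBS 1. Galc had a median of 14.2 (10.6 to 18.7) with PBS and 7.70 (6.01 to 13.1) with lactate, a change of -0.69 ± 0.16 (adjusted p = 0.012). Tpp1 had a median of 62.7 (48.8 to 84.6) with PBS and 39.2 (34.9 to 60.4) with lactate, a change of -0.57 ± 0.13 (adjusted p = 0.012). Its lactate libraries 1 to 4 lay below every PBS library. Npc1 was lower by -0.58 ± 0.14 (adjusted p = 0.016), Ap1b1 by -0.57 ± 0.14 (adjusted p = 0.015) and Atp6v0d2 by -0.66 ± 0.19 (adjusted p = 0.029). The calls of Npc1 and Ap1b1 were lost without D1 AP+PBS 1 or 4, and that of Atp6v0d2 without any of 6 libraries. Slc17a5 (-0.56 ± 0.13, adjusted p = 0.013), Hyal2 (-0.51 ± 0.12, adjusted p = 0.013), Clta (-0.40 ± 0.10, adjusted p = 0.019) and Mcoln1 (-0.38 ± 0.10, adjusted p = 0.023) were lower too. Clta lost the call without D1 AP+PBS 1, D1 AP+PBS 4 or D1 AP+Lac 4, and Mcoln1 without D1 AP+PBS 1, D1 AP+PBS 4 or D1 AP+Lac 1.

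The 5 genes higher with lactate at day 1 were Ap1s3, Ncoa7, Napsa, Gnptab and Atp6v0a2. Ap1s3 ranged from 5.12 to 11.1 FPKM with PBS (median 7.27) and from 7.20 to 18.6 with lactate (median 13.6). Lactate library 6 was the lowest of its group and lay within the PBS range, as did library 5. The change was 0.72 ± 0.18 (adjusted p = 0.016), and it was lost without D1 AP+PBS 1 or 4. Atp6v0a2 ranged from 15.6 to 22.8 with PBS (median 18.2) and from 24.4 to 28.3 with lactate (median 25.9). All lactate libraries were above all PBS libraries, with a change of 0.46 ± 0.10 (adjusted p = 0.012). This gene encodes an a subunit of the proton pump that is found on endosomes and the Golgi. Napsa was higher by 0.51 ± 0.13 (adjusted p = 0.019), Gnptab by 0.48 ± 0.15 (adjusted p = 0.036) and Ncoa7, which binds the pump, by 0.58 ± 0.18 (adjusted p = 0.046). Napsa lost the call without D1 AP+PBS 1 or 4, Gnptab without any of 8 libraries and Ncoa7 without any of 9.

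These 28 genes can be set beside the change from D1 to D3 AP+PBS, which shares the D1 AP+PBS libraries. The 23 lower genes were all called lower in that step and the 5 higher ones were all called higher. The same agreement was not counted over all genes called with lactate, so it is not read as particular to lysosome genes. Since both comparisons subtract the same 6 libraries, a high or low value there moves both the same way, and no test between them was made. For Sgsh the values were -0.75 with lactate and -0.95 with time, for Galc -0.69 and -1.21, and for Ap1s3 0.72 and 1.05.

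At day 3, lactate against PBS gave 0 lysosome genes in either direction by limma, with 0.376% of all genes called, 0.192% higher and 0.184% lower. At an unadjusted p under 0.05 there were 12 higher and 1 lower of the 104, where 17.9% of all genes passed. With the spread from the 8 compared libraries alone 0 were called too, with 14 higher and 2 lower at an unadjusted p under 0.05. Of all genes 15% passed that level there. The gene with the smallest p was Laptm4b, at 15.0, 11.9, 11.7 and 8.66 FPKM with PBS and 6.13, 4.67, 4.44 and 6.14 with lactate. These groups did not overlap, and the difference of -1.0 ± 0.27 had an adjusted p of 0.09. In all, 14 lysosome genes were higher and 2 lower without overlap, against 3.34% and 4.33% of all genes. Cltc was one of them, at 98.2, 74.0, 92.5 and 96.3 FPKM with PBS and 108, 140, 159 and 114 with lactate (0.52 ± 0.15, adjusted p = 0.11). Lgmn, Gla and Igf2r had 279 ± 46.8, 7.61 ± 1.62 and 6.66 ± 2.02 FPKM with PBS and 328 ± 77.5, 8.12 ± 2.35 and 9.61 ± 2.51 with lactate, with adjusted p of 0.66, 0.92 and 0.32.

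The effect of lactate differed between the days for 23 genes, tested as the day 3 effect minus the day 1 effect in the same model. Of these 19 had a positive difference and 4 a negative one, against 4.76% and 5.94% of all genes tested. Among genes with a mean of at least 5 FPKM in one of the groups, the highest were Sgsh (1.00 ± 0.28, adjusted p = 0.023), Ap1b1 (0.94 ± 0.22, adjusted p = 0.01), Npc1 (0.93 ± 0.23, adjusted p = 0.012), Galc (0.90 ± 0.25, adjusted p = 0.023) and Glb1 (0.87 ± 0.25, adjusted p = 0.026). All 5 had a negative lactate value at day 1 and a positive one at day 3 that did not pass the test. The lowest was Laptm4b (-1.63 ± 0.35, adjusted p = 0.0079), with a median of 5.53 FPKM with PBS and 12.3 with lactate at day 1, and it was followed by Ncoa7 (-1.03 ± 0.29, adjusted p = 0.025), Ap1s3 (-0.88 ± 0.29, adjusted p = 0.048) and Napsa (-0.72 ± 0.21, adjusted p = 0.03). The number called was 15 without D1 AP+PBS 1, 11 without D3 AP+Lac 2 and 46 without D1 AP+Lac 6, and it was 11 with the spread from these 4 groups alone. With the day 1 libraries 1 to 4 alone 47 were higher and 8 lower. With 5 and 6 alone limma called 0 lysosome genes and 0 of all genes. At an unadjusted p under 0.05, 3 of the 104 lysosome genes were higher and 4 lower there, where 8.88% of all genes passed. Over the same contrast 5 of 12 macrophage markers were higher. With their level as a covariate 16 lysosome genes were called, 11 higher and 5 lower, and 10 of the 23 were among them. Sgsh (0.75), Npc1 (0.54), Galc (0.32), Glb1 (0.47), Gusb (0.30), Clta (0.32), Ap1s3 (-0.33) and Napsa (-0.46) were not called there. Apart from libraries 5 and 6 alone, calls over all genes in these settings are not given here. The shifts are therefore not read as particular to lysosome genes.

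**Figure D5:**
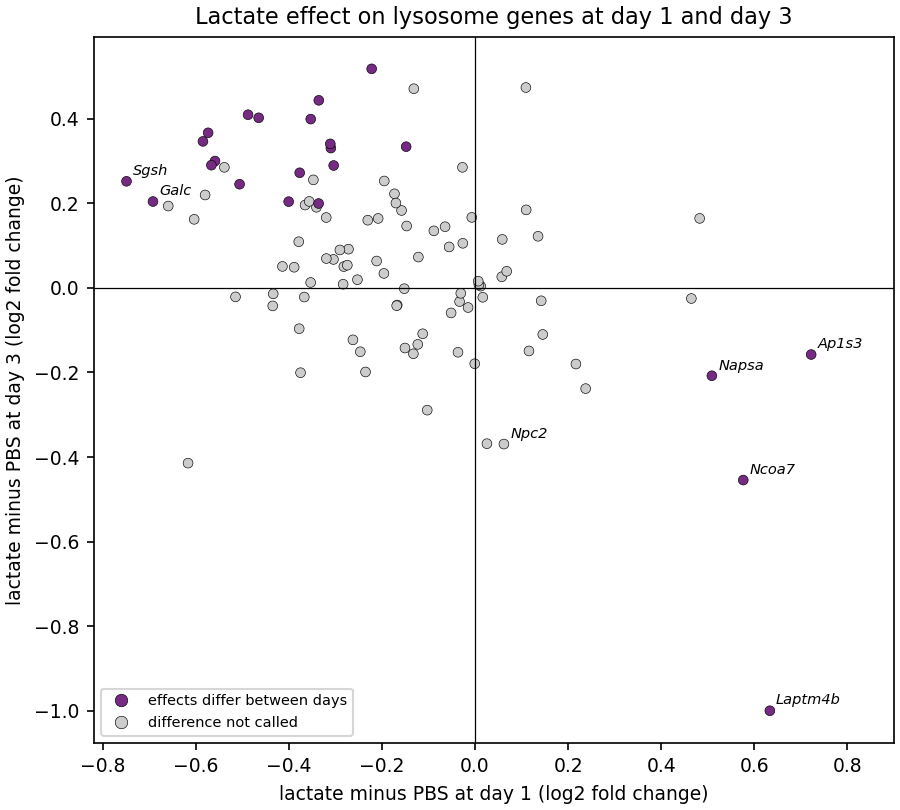
Lactate minus PBS at day 1 (horizontal) and day 3 (vertical) for the 104 tested genes, as log2 fold changes, with each point 1 gene and purple points those whose effects differed between the days. Most purple points lie at the upper left, with Sgsh at -0.75 and 0.25, and Laptm4b lies at the lower right at 0.63 and -1.0.

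Other genes related to the lysosome that the pathway term leaves out were taken from fixed lists. Of 9 further genes of the pump, 7 rose and 0 fell at day 0, 5 fell at day 1 and 4 at day 3. Most were of the V1 sector, the portion of the pump that spends ATP. The others were Atp6v0e, of the membrane sector, and the accessory gene Atp6ap2. At day 0 the shares were 77.8% and 0% against 19.7% and 41.4% of all genes. The falls were 55.6% at day 1 and 44.4% at day 3, against 19.8% and 12.8%. Atp6v1c1 (1.18 ± 0.11, adjusted p = 3e-09) and Atp6v1a (1.16 ± 0.16, adjusted p = 1.5e-06) rose most at day 0. Of 20 tested genes of the TFEB family and lysosomal nutrient sensing, 7 rose and 4 fell at day 0, 5 rose and 8 fell at day 1, and 0 rose and 9 fell at day 3. The shares were 35% and 20%, 25% and 40%, and 0% and 45%. Of all genes it was 19.7% and 41.4%, 43% and 19.8%, and 21.5% and 12.8%. Flcn (folliculin), a regulator of TFEB and TFE3, rose at day 1 by 0.85 ± 0.13 (adjusted p = 5.7e-06), fell at day 3 by 0.84 ± 0.14 (adjusted p = 0.00015) and was lower with lactate at day 1 (-0.62 ± 0.12, adjusted p = 0.0089). The Tfe3 transcript was lower in D3 AP+PBS than in NC (-0.70 ± 0.13, adjusted p = 0.00036). These are transcript levels, and the activity of these factors is set mainly by where the protein is in the cell.

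Of 23 autophagy genes, 3 rose and 11 fell at day 0, 13 rose and 3 fell at day 1, and 0 rose and 11 fell at day 3. The shares at the first steps (13% and 47.8%, then 56.5% and 13%) were near those of all genes (19.7% and 41.4%, then 43% and 19.8%), and at day 3 47.8% fell against 12.8%. Gabarapl1, which coats autophagosomes, fell by 1.81 ± 0.20 (adjusted p = 3.6e-08), rose by 1.80 ± 0.17 (adjusted p = 2.5e-09) and fell by 0.93 ± 0.18 (adjusted p = 0.00052) at these steps. Of 13 genes on a list of other lysosomal proteins of macrophages, 4 rose and 2 fell at day 0 (30.8% and 15.4%), and 0 rose and 9 fell at day 3 (0% and 69.2%). The list also holds the protease inhibitors Cst3 and Cstb, which are not enzymes or membrane proteins of the lysosome. Day 0 values on this list ran from -5.13 to 4.85. Gpnmb, a glycoprotein of phagocytic macrophages, rose most at day 0 (4.85 ± 0.49, adjusted p = 9.8e-09), from 1.95 to 93.9 FPKM on average. It then fell by 1.5 ± 0.41 (adjusted p = 0.0026) and 2.06 ± 0.43 (adjusted p = 0.0012). With lactate at day 1, 3 of the 23 autophagy genes (13%) and 3 of the 13 genes of the macrophage list (23.1%) were lower and 0 higher. Of the 20 genes of the TFEB family and nutrient sensing, 1 was lower (5%) and 0 higher, and of the 9 further pump genes 0 were called. Of all genes 5.16% were higher and 4.56% lower. Gabarapl1 was at -0.74 ± 0.16 (adjusted p = 0.0098) in this comparison. The genes set aside from the pathway, of which 15 were tested, had 7 higher and 3 lower at day 0, 1 higher and 8 lower at day 3, and 0 higher and 1 lower with lactate at day 1. The shares were 46.7% and 20%, 6.67% and 53.3%, and 0% and 6.67%. Of all genes it was 19.7% and 41.4%, 21.5% and 12.8%, and 5.16% and 4.56%.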

How the data were processed

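RNA of sorted pancreatic macrophages was measured in 28 libraries, made from 10 ng of total RNA per the labels. The deposited table gives FPKM per gene, computed by the authors, with pathway terms. Per the submitters' processing notes, fastp and R 3.2.0 were used. Which aligner and counter were used is not stated in those sources, and neither is a build. Fragment totals were inferred from the steps of low FPKM values, which gave whole fragments (tolerance 0.0001) for 100% of 25301 genes. Between libraries of a group, chi-square per degree of freedom was at least 24.49, so none was a repeat within sampling noise.

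FPKM were taken as log2(FPKM + 1), so fold changes of low genes are understated. Genes with an FPKM of at least 1 in 3 libraries (11960) were kept. A single limma 3.58.1 model (R 4.3.3, with trend and robust variance moderation) of 6 group means gave 7 comparisons, two-sided, with p-values adjusted by Benjamini-Hochberg over all genes and a threshold of 0.05. It was tested on simulated data. An adjusted p in the text is from this model. FPKM are scaled to each library's total, so large changes of a few genes move all others.

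The genes and lists were chosen with earlier results of these data known. Named were, per comparison, the 6 called genes with the highest and the 6 with the lowest change and a mean of at least 5 FPKM in a group, the most abundant gene of each role, a fixed list of familiar lysosomal genes, and the 2 called genes with the largest change in each other list. Some genes that this rule picks are not reported here. Cln3 was named after its motif match was seen. Roles were assigned from textbook knowledge, and those of the 4 V-ATPase regulators were set after the table was seen. Alternatives were pseudocount 0.1, no filter, a mean FPKM of 5, other scalings, marker covariates, a replicate block, leaving out libraries, and day 1 libraries 1 to 4 or 5 and 6 alone. Promoters were searched with Python 3.11.15.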

Additional observations from a re-analysis of the deposited data

Results flagged for a closer look

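In 16 of 240 combinations of a named gene and a group, 1 library lay far from the others by Dixon's criterion, where chance gives about 1 in 20. Lactate library 6 of day 1 was the highest of its group for Ap1b1 (77.39 FPKM), Npc1 (37.5), Sgsh (19.99), Laptm5 (823.2) and Dmxl2 (1.896). These are genes for a coat adaptor, a cholesterol carrier, a sulfamidase, a membrane protein of immune cells and a pump regulator. Lactate library 5 of day 1 was the lowest for the lipid transporter Abca2, at 2.394 FPKM against 5.33 for the next. D0 library 1 was the highest for Cd63 (209.1), Psap (3690) and Galns (26.22), and D0 library 3 for Lamp2 (142.5) and Ncoa7 (5.232). D1 AP+PBS library 5 was the highest for Laptm4b (14.5) and Ncoa7 (9.407). In D3 AP+PBS, Galns was highest in library 3 (8.774), Gla in library 4 (10.03) and Ncoa7 in library 1 (11.47).

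The lactate effect differed between day 3 and day 1 for 17 named genes in the interaction term of the limma model. Higher at day 3 than at day 1 were the effects on Sgsh (1.00, adjusted p = 0.023), Ap1b1 (0.94, adjusted p = 0.01), Npc1 (0.93, adjusted p = 0.012), Galc (0.90, adjusted p = 0.023), Glb1 (0.87, adjusted p = 0.026), Tpp1 (0.86, adjusted p = 0.011) and Slc17a5 (0.86, adjusted p = 0.011). The same held for Atp6v0a1 (0.78, adjusted p = 0.009), Hyal2 (0.75, adjusted p = 0.013), Cltc (0.74, adjusted p = 0.019), Gusb (0.64, adjusted p = 0.031), Clta (0.60, adjusted p = 0.022) and Dmxl2 (0.59, adjusted p = 0.04). The effects were lower at day 3 for Laptm4b (-1.63, adjusted p = 0.0079), Ncoa7 (-1.03, adjusted p = 0.025), Ap1s3 (-0.88, adjusted p = 0.048) and Napsa (-0.72, adjusted p = 0.03). With 1 library left out, Ap1s3 lost the call for any of 13 libraries, Gusb for any of 8 and Napsa for any of 6. Glb1 lost it without D1 AP+PBS 1, D3 AP+PBS 1 or D3 AP+Lac 2, Clta without D3 AP+PBS 1 or D3 AP+Lac 2, Sgsh and Galc without D3 AP+Lac 2, and Ncoa7 without D3 AP+PBS 1.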

How the results depend on the processing

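The number of lysosome genes called for D0 against NC was 61, and 52 to 62 with 1 library left out, and 26 with the acinar covariate. For D1 AP+PBS against D0 it was 60, and 52 to 62 with 1 library left out. For D3 against D1 AP+PBS it was 68, and 58 to 70, with 40 under the lymphocyte and 14 under the macrophage covariate. For D3 AP+PBS against NC it was 28, and 10 to 26, with 17 and 16 under those covariates. For lactate at day 1 it was 28, and 3 to 51, with 15 without a filter, 17 with the lymphocyte covariate, 0 with the macrophage covariate or the compared groups alone, 61 without the 3 least similar libraries, 57 with day 1 libraries 1 to 4 alone and 0 with 5 and 6 alone. For lactate at day 3 it was 0, and 0 to 1, with 1 without a filter, under the replicate block or with the acinar covariate, 2 under quantile normalization, 4 and 9 with the lymphocyte and macrophage covariates, and 7 without the 3 least similar libraries. The difference between days gave 23, and 11 to 46, with 15 without a filter, 11 from its 4 groups alone, 55 without the 3 libraries or with day 1 libraries 1 to 4 alone, and 0 with 5 and 6 alone. With the macrophage covariate 16 were called, 10 of them among the 23. Calls over all genes moved too. For lactate at day 1 they were 1162, 0 with the compared groups or with 5 and 6 alone, and 1 with the macrophage covariate. For most other settings they are not given here, so a shift is not read as particular to lysosome genes. The cause of these shifts was not tested, except that fewer libraries or more genes entered by construction.

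With the lymphocyte covariate the sign changed for D1 AP+PBS against D0 in Ap1s3 (-0.27), Lgmn (0.51), Acp5 (-0.96), Atp6v0b (0.51), Gusb (0.49), Lamp2 (1.14), Lipa (0.99), Npc1 (0.31), Npc2 (1.06), Psap (0.75) and Tcirg1 (0.72). For D0 against NC it changed in Lamp1 (-0.65), Lamp2 (-0.71), Lipa (-0.84), Npc2 (-0.25), Psap (-0.24) and Tcirg1 (-0.064). With the macrophage covariate it changed for D3 AP+PBS against NC in Hexa (0.19), Gusb (0.023), Lamp1 (0.45) and Lgmn (0.68), and for D3 against D1 AP+PBS in Cd63 (0.075) and Lamp2 (0.13). The calls of Gusb, Litaf, Abca2 and Ap1s3 for D0 against NC were lost with the acinar and with the lymphocyte covariate. That of Clta was lost with the lymphocyte covariate. Laptm4b lost it under quantile normalization and with the lymphocyte covariate, and Atp6v0d2 under quantile normalization and with the acinar covariate. The marker levels differ between the groups, so a covariate and a group effect share part of their variation.

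Same-numbered libraries did not in general vary together. Of 59 pairs, 20 had a correlation of deviations over 0.1 (range -0.57 to 0.61), as did 96 of 264 differently numbered pairs. No comparison had every same-numbered pair over 0.1. Between the day 1 arms the 6 pairs ran from -0.34 to 0.61, and libraries 5 and 6 of both arms stood apart from libraries 1 to 4. With the replicate block 63, 66, 60, 30, 34, 1 and 27 genes were called in the 7 comparisons. Genes near 1 FPKM, such as Atp6v0d2 in D0, rest on few fragments.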
